A study of Mus musculus with 21 samples.

Results

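The comparison described here sets the population named HFSC against the population named CD34a6 in the authors' deposited table of 3 mouse epidermal populations. All 13962 loci that the table tested between these names were taken, of 43944 loci listed for the pair, so 31.8% of the listed loci entered the comparison and repeated lines of a locus counted once. The series holds 21 libraries of polyadenylated RNA in 7 groups of 3. The libraries behind this table are wild-type mouse keratinocytes in 3 groups of 3. They are hair follicle stem cells (HFSCs) purified by flow cytometry, HFSCs from culture, and total epidermal cells. The libraries of cultured HFSCs are titled 3C-HFSCs. The labels state neither the age nor the strain of the mice. Another 12 libraries came from 3C cultures of total epidermal cells, kept for 10 to 14 days: their CD34+ and CD34neg alpha-6 integrin+ fractions, and cultures given cyclopamine or dorsomorphin for 48 h. Each value is the authors' single FPKM (fragments scaled to transcript length and library size) per locus and population, estimated over its libraries, and no replicate spread could be given. A gene is called below where the authors' deposited table gives it an adjusted p under 0.05, and every FPKM and call of this pair is from that table. The labels do not say whether replicates came from separate mice or cultures, so the authors' p-values may measure a technical spread.

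Hair follicle stem cells sit in the bulge, a niche in the outer root sheath, and stay quiet for long periods before they rebuild the lower follicle. In mouse skin they are sorted by the surface glycoprotein CD34 together with alpha-6 integrin, and keratin 15 marks the bulge. They hold to their state through the transcription factors Lhx2, Sox9, Tcf7l1 and Nfatc1, receive BMP and Wnt signals, and lay down a basement membrane of their own. After wounding, keratinocytes switch on keratins 6 and 16, cytokines and proteases.

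Both names can stand for a stem cell population, and the labels do not tie either of them to the sorted or to the cultured libraries, so the names of the table are kept throughout. The 4 marker genes chosen for this pair separated the populations. Krt15 (chr11:100131758-100135928, GRCm38) was listed at 37.9 FPKM in HFSC, 9923 in CD34a6 and 4791 in bulk, the column read as total epidermal cells. Cd34 (chr1:194938819-195092249, a locus that it shares with Cd46) stood at 8.70, 327 and 10.6 FPKM in the same order. Krt16 (chr11:100246091-100248902) went the other way with 1058, 0.973 and 18.9 FPKM. Slc2a1 (chr4:119108711-119138801), the main glucose transporter of keratinocytes, was listed at 361, 32.7 and 37.2 FPKM. The authors' deposited table gives all 4 its smallest adjusted p, 0.000212, which 4338 loci of the pair share. Thus Krt15 and Cd34 were low and Krt16 and Slc2a1 were high in the column that carries the name HFSC.

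Both columns carried basal keratinocyte genes. Krt5 was not called, with 6893 FPKM in HFSC and 6494 in CD34a6, and neither was Col17a1, a hemidesmosome collagen, with 1084 and 1310.3 FPKM. Krt14 was higher in HFSC at 8296 against 1257 FPKM, and the integrin genes Itga6 and Itgb4 were 1.97-fold and 1.64-fold higher, while Trp63, the p63 gene of stratified epithelia, stood at 143 against 279 FPKM. The 4 culture columns of the other tables gave a further reading of the names. Across 10239 genes, the HFSC column had a Spearman rank correlation of 0.73 with the CD34+ fraction, 0.73 with the CD34neg fraction, 0.79 with cyclopamine and 0.78 with dorsomorphin. The CD34a6 column had 0.59, 0.56, 0.58 and 0.57, and bulk 0.54, 0.58, 0.59 and 0.57. These are descriptions across genes, which are not independent replicates, and the tables were processed apart from each other.

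In the authors' deposited table, 7568 of the 13962 loci (54.2%) were called between the populations, 3514 (25.2%) higher and 4054 (29.0%) lower in HFSC. Among them, 1878 were at least 2-fold higher and 2813 at least 2-fold lower, and at least 10-fold differences numbered 379 and 644. The count of large decreases thus exceeded that of large increases. Among loci with at least 5 FPKM in the higher column the balance of calls turned, to 2978 higher and 2765 lower. The median log2 fold over all loci was -0.07 on the log2(FPKM + 1) scale, which understates the folds of low genes. The tested FPKM summed to 481645 in HFSC and 405925 in CD34a6, a scale difference of 0.25 (log2). No called locus turned direction when the sums were made equal. The authors' calls were kept there and not recomputed, so this bears on direction only. In bulk RNA, fewer cells that use a gene and less of its RNA per cell cannot be told apart.

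**Figure D1:**
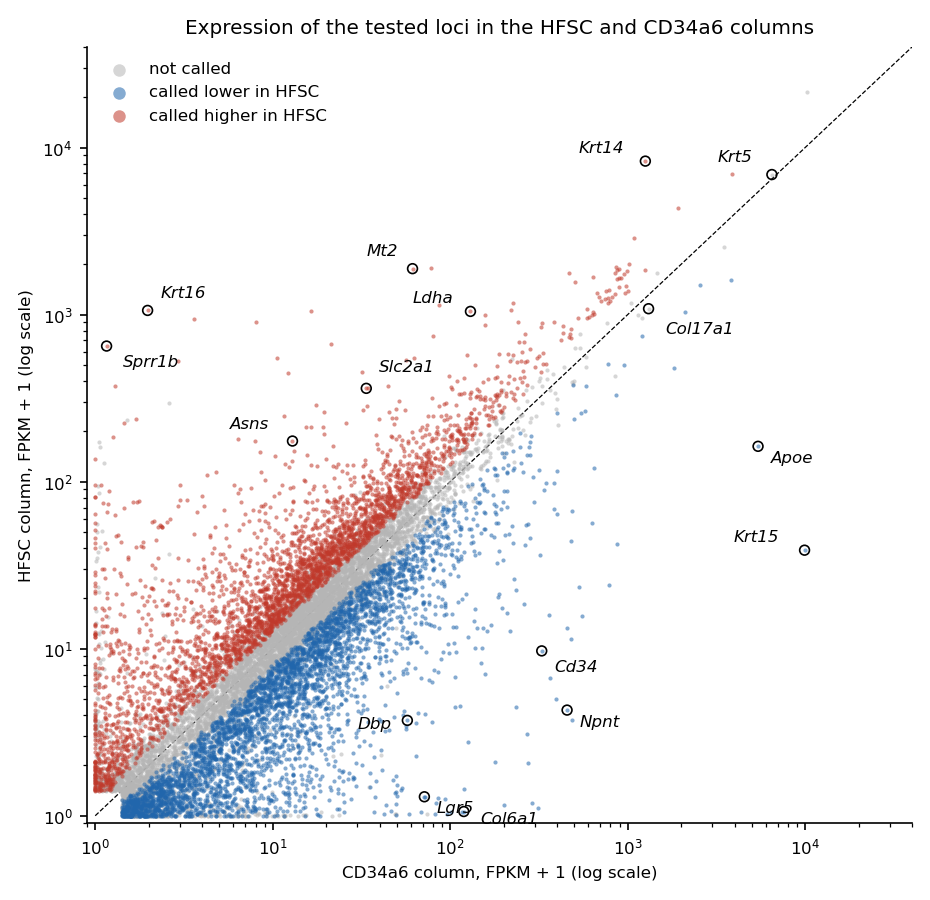
FPKM + 1 of every tested locus in the CD34a6 column (x axis, log scale) against the HFSC column (y axis, log scale), with 1 point per locus coloured by the authors' call and equal levels on the dashed line. Krt5 and Col17a1 lie near the line, Krt15, Cd34, Apoe and Npnt far below it, and Krt16, Sprr1b and Slc2a1 far above it.

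Among called loci of 1 named gene with at least 5 FPKM in the higher column and a value above 0 in the other, Sprr1b and Krt16 had the largest increases in HFSC on the log2(FPKM + 1) scale. Sprr1b, a small proline-rich envelope precursor, had 647 FPKM in HFSC against 0.159 in CD34a6, and Anxa3, an annexin, 223 against 0.445. The lactate exporter Slc16a3 stood at 184 against 0.253 FPKM. Ly6a, which encodes Sca-1, was 128-fold higher (904 against 7.05 FPKM) and its relative Ly6e 67.8-fold. Smooth muscle actin Acta2 (62.1 against 0.289) and the EGF receptor ligand Epgn (74.6 against 0.720) were also in this set. Of the largest decreases beside Krt15, Nrep was listed at 0.191 FPKM in HFSC and 289 in CD34a6, Shisa2, which holds back Wnt and FGF receptors, at 0.154 and 199, and the heparin-binding growth factor Ptn at 1.06 and 273. Ism1, the BMP antagonist Grem1 and the calcium pump Atp2a3 were at 0.0575, 0.262 and 0.0212 FPKM in HFSC and at 100.2, 92.4 and 57.7 in CD34a6. Of the most abundant RNAs that were lower, Apoe, a lipid carrier, fell from 5427 FPKM in CD34a6 to 162 in HFSC, with 5466 in bulk.

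Some genes were listed at 0 in a column, so no fold is given. The calcium-binding S100a9 (135 FPKM in HFSC), the protease inhibitor Slpi (62.8), the stathmin Stmn2 (55.6) and the chemokine Ccl8 (21.1) were listed at 0 in CD34a6 and called, and Mfap2, a microfibril gene, was listed at 0 in HFSC and 17.4 FPKM in CD34a6. The prolactin-related Prl genes, best known from the placenta, gave 6 tested loci. Prl2c3, Prl2c2 and Prl8a9 were listed at 80.1, 42.2 and 22.7 FPKM in HFSC and 0 in CD34a6, and Prl2c5, with 84.4 against 0.0453 FPKM, was not called. The summed level of the 6 was 233 FPKM in HFSC, 0.0453 in CD34a6 and 0.301 in bulk, and 5 of them were called higher. The 5 called were those listed at 0 in CD34a6. Of all tested loci, 106 were listed at 0 there and 95 of these were called. The Prl2c copies are nearly identical, so reads may be split between them. These genes were chosen after their values were seen.

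The lists described next hold 1358 genes, of which 1152 were tested. Their members were chosen with earlier results of these data known. More tested members were called higher than lower in 30 of 56 lists, more lower in 22, and the counts were equal in 4. The counts of each list stand beside 25.2% called higher and 29.0% called lower among all tested loci.

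**Figure D2:**
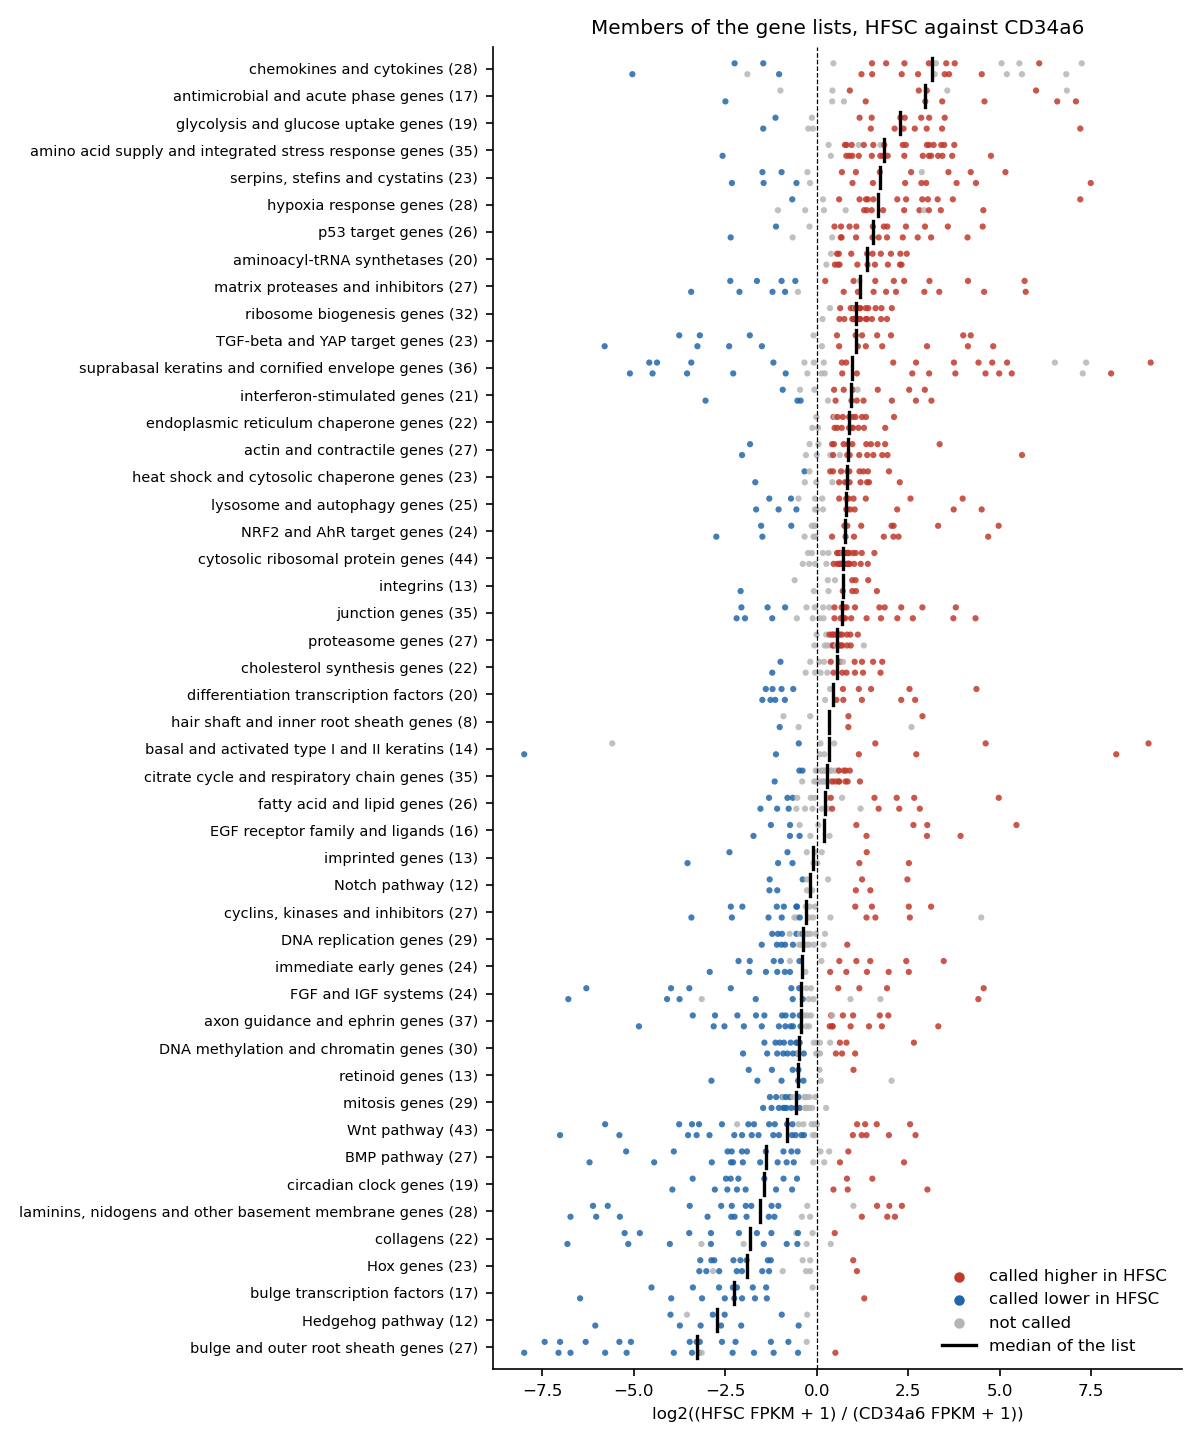
log2((HFSC FPKM + 1) / (CD34a6 FPKM + 1)) of each tested member of the lists with at least 8 tested members, 1 point per gene coloured by the authors' call, with the list's median as a black bar and the number of tested members after its name. Chemokines and antimicrobial genes lie at the top, and bulge genes, Hedgehog, Hox genes and collagens at the bottom.

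Bulge transcription factors were lower in HFSC nearly throughout: 15 of 17 tested members were called lower and 1 higher, with a median log2 fold of -2.25. Tbx1 stood at 14.8 FPKM in HFSC, 361 in CD34a6 and 10.3 in bulk. Nfatc1, which keeps bulge cells quiescent, was 18.3-fold lower (5.78 against 106 FPKM), Barx2 10.9-fold and Nfib 9.09-fold. Sox9 differed less, at 55.2 against 180.1 FPKM, and Vdr, the vitamin D receptor, at 53.8 against 140.05. Runx1, a factor of follicle activation, was the exception with 36.2 against 14.1 FPKM, and Sox4 was not called at 33.0 against 35.8. The members therefore spanned from a rise in Runx1 to a 131-fold fall in Lhx2. Between the fractions of the 3C cultures, which are other libraries in a table of their own, 11 of 16 of these factors were called higher in CD34+ than in CD34neg cells and 0 lower, against 2.08% higher and 4.71% lower of all 11370 loci tested there. Nfatc1 had 14.4 against 4.83 FPKM there and Tbx1 3.70 against 0.857. Tbx1 was thus listed below its CD34a6 level in both fractions, on a scale set by a separate table.

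Surface and secreted genes of the bulge and outer root sheath went down likewise, with 24 of 27 called lower, 1 higher and a median of -3.28. This list holds Krt15, Ptn and Shisa2, named above among the largest decreases, so its count and median may partly follow from how members were chosen. The R-spondin receptors Lgr5 and Lgr6, which mark cycling and upper follicle stem cells, were at 0.299 and 0.178 FPKM in HFSC against 70.5 and 48.6 in CD34a6. Npnt, the nephronectin that anchors the arrector pili muscle at the bulge, was at 3.29 against 455 FPKM, and Cd200, an immune checkpoint ligand, at 0.465 against 52.7. S100a6 was called at a smaller difference, 1502 against 2571 FPKM. Aldh3a1 was the member called higher, at 12.3 against 8.33 FPKM, and Fgf18, a keeper of follicle rest, was not called at 0.0569 against 8.34.

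Among keratins, the wound-type members rose and the bulge keratin Krt15 fell, while Krt5 did not move beyond the test. Of 14 tested basal and activated keratins, 6 were called higher and 3 lower. Krt6a was 24.8-fold higher (1913 against 77.0 FPKM), Krt6b 1310.1-fold (374 against 0.285) and Krt17 2.22-fold. Krt24, at 0.0205 FPKM in HFSC and 48.1 in CD34a6, was not called, and Krt19, a bulge keratin, was listed at 0 and 1.16 FPKM. Krt6a and Krt6b are close copies whose reads may be shared. Keratins together took 4.29% of the tested FPKM in HFSC and 5.01% in CD34a6.

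Suprabasal and cornified genes went in both directions, with 18 of 36 called higher, 9 lower and a median of 0.95. The small proline-rich genes were larger in HFSC at all 15 tested loci, 11 of them called, and summed to 2213 FPKM in HFSC, 3.96 in CD34a6 and 230 in bulk. The late envelope genes of the Lce3 group, known from damaged skin, summed to 305 FPKM in HFSC, 0.0335 in CD34a6 and 3.17 in bulk, with 5 of 6 called higher. Those 5 were listed at 0 in CD34a6, as were 106 of all tested loci, of which 95 were called. Lce3c, at 93.1 against 0.0335 FPKM, was not called. The spinous layer keratins named here were lower in HFSC: Krt10 stood at 41.5 FPKM in HFSC, 874 in CD34a6 and 25128 in bulk, Krt1 at 10.7, 125 and 3056, and Krt77 at 22.6, 528 and 15602. Loricrin (Lor) followed them with 57.6, 105 and 5734 FPKM. Other envelope and late genes went both ways. Of the Lce1 group, 11 of 14 were called higher, with sums of 679 FPKM in HFSC, 27.4 in CD34a6 and 1978 in bulk. Filaggrin (Flg) was higher at 18.9 against 2.26 FPKM, corneodesmosin (Cdsn) at 213 against 14.5 and the crosslinking enzyme Tgm1 at 25.1 against 2.98. The scaffold genes Evpl (23.5 against 54.7) and Scel (3.47 against 106) were lower, and Ppl was not called (52.7 against 46.0). The differentiation factors were mixed, 10 called higher and 8 lower of 20. Ehf (27.5 against 0.384 FPKM), Ovol1 (26.0 against 3.19) and Grhl3 (20.6 against 3.35) were higher, and Hopx (72.2 against 175) and the glucocorticoid receptor Nr3c1 (16.7 against 48.6) lower. Sprr and Lce genes lie in clusters of similar copies, and their separate values are uncertain for that reason.

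In the Hedgehog pathway, whose ligands bind Patched receptors and so free Smoothened to activate Gli factors, 10 of 12 tested members were called lower and 0 higher. Receptors and co-receptors led: Boc stood at 3.13 FPKM in HFSC and 65.0 in CD34a6, Gas1 at 19.5 and 184, Cdon at 4.20 and 28.8, and Ptch1 at 7.97 and 36.5. Smo itself was 1.42-fold lower. Gli2 was at 1.99 against 20.4 FPKM and Gli3 at 4.35 against 9.37. The inhibitor Hhip (0.00516 against 10.7 FPKM) and Sufu (11.5 against 14.0) were not called, and the ligands Shh and Ihh were listed but not tested. The pathway's coreceptors and its Gli factors were thus low together in HFSC, with medians of -2.73 for the list and -0.07 for all loci.

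BMP genes gave 20 called lower and 3 higher of 27. The receptors Bmpr1a (39.3 against 36.5 FPKM) and Bmpr2 (15.2 against 16.3) were not called, whereas Bmpr1b was called higher at 4.41 against 0.0343. Secreted antagonists were lower: Grem1 as above, Nog at 0.981 against 8.66 FPKM, Fst, an activin and BMP trap, at 15.1 against 80.7, and Sostdc1 at 119 against 648. Target genes were lower as well, with Id3 at 53.1 against 222 FPKM and Smad6 at 2.02 against 10.3. The ligand Bmp7 was lower at 1.31 against 5.75 FPKM. Called antagonists, targets and this ligand thus shared a direction, with a list median of -1.39.

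Wnt genes were called lower at 26 and higher at 9 of 43 members, with a median of -0.81. Frizzled receptors went both ways. Fzd1 was 8.72-fold lower, Fzd2 10.6-fold and Fzd7 9.90-fold, with 6.08, 9.75 and 13.7 FPKM in HFSC. Lgr4, which binds R-spondins, stood at 9.13 against 136 FPKM, and the secreted inhibitor Dkk3 at 12.4 against 141. Ligands split too, with Wnt5b lower (0.321 against 14.1 FPKM) and others higher, Wnt10a at 75.8 against 12.1 FPKM, Wnt4 at 33.1 against 13.5 and Wnt7a at 5.69 against 0.0298, and so were the receptors Fzd5 (10.4 against 2.66) and Fzd6 (52.0 against 25.7). The feedback target Axin2 was lower at 6.69 against 16.03 FPKM. Ctnnb1, which encodes beta-catenin, was not called (310.4 against 399.7).

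TGF-beta and YAP genes had 14 called higher and 7 lower of 23. Thbs1, which activates latent TGF-beta, was 33.4-fold higher (179 against 5.35 FPKM), Inhba 176-fold and Pmepa1 22.9-fold. The latent binding proteins Ltbp2 (0.301 against 71.3 FPKM) and Ltbp3 (8.50 against 90.03), the ligand Tgfb3 (0.841 against 23.9) and the target gene Ctgf (9.65 against 96.6) were lower. Tgfb1, in contrast, was 2.27-fold higher. Of the epidermal growth factor family, most tested ligands were higher: Nrg1 (16.2 against 0.125 FPKM), Areg (10.0 against 0.360), Hbegf (14.9 against 1.54), Tgfa (21.1 against 1.74) and Ereg (1.77 against 0.310) were called higher beside Epgn. The receptor Egfr was not called (37.3 against 52.0 FPKM), and the ligands Btc and Egf and the receptor Erbb2 were called lower. With 7 higher and 5 lower of 16, the list's median was 0.20.

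In the FGF and IGF systems 5 members were called higher and 12 lower of 24. The widest differences each way were of IGF-binding proteins, which hold IGF outside the cell. Igfbp2 was higher in HFSC at 29.1 against 0.273 FPKM. Igfbp5 was at 0.05003 against 115 FPKM, Igfbp4 at 4.0001 against 392.1, Igfbp3 at 11.8 against 217 and Igfbp6 at 0.125 against 14.1. Only Igfbp7, of the binding proteins tested, was not called (102 against 114 FPKM). Fgfr1 (16.6 against 196) and Fgfr3 (17.3 against 92.2) were lower, and Fgfbp1, a carrier that releases FGF from matrix, was higher (247 against 10.6). Notch genes gave 4 in each direction of 12 (33.3% each), near the shares of all loci. The receptor Notch1 (88.4 against 36.9 FPKM) and the ligands Jag1 (95.1 against 33.8) and Dll1 (38.1 against 6.01) were higher. The target Hes1 was not called (62.1 against 49.9). Among guidance genes, 12 were called higher and 19 lower of 37. Sema3e (0.643 against 46.7 FPKM) and the ephrin Efnb2 (8.45 against 98.0) were lower and the receptor Nrp2 (12.1 against 0.305) higher.

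Chemokines and cytokines were more often called higher than lower in HFSC, with 14 called higher, 4 lower and 10 not called of 28, and a median of 3.14. Cxcl1, which draws neutrophils, stood at 73.6 FPKM in HFSC, 0.101 in CD34a6 and 0.125 in bulk. Il1a was at 11.6, 0.112 and 2.85 FPKM, Cxcl16 at 152, 12.1 and 63.3, and Lif at 10.3, 0.350 and 0.214. Wide differences without a call were common in this list: Tslp, an alarm cytokine of keratinocytes, was at 293 against 1.602 FPKM (adjusted p 0.198 in the authors' deposited table), and Ccl2, which draws monocytes, at 159.7 against 0.0601 (adjusted p 0.324 there). Cxcl14, a chemokine of resting epithelium, was 34.3-fold lower in HFSC (22.9 against 785 FPKM). Immune cell markers summed to 8.24 FPKM in HFSC, 10.7 in CD34a6 and 484 in bulk. Cd74 had 1.05 FPKM in HFSC, 3.87 in CD34a6 and 159 in bulk, and of 19 immune markers 14 were not tested, Ptprc among them. The part of immune cells in the cytokine values was not tested.

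Antimicrobial and acute phase genes had 10 higher, 1 lower and 6 not called of 17. Complement C3 stood at 21.8 FPKM in HFSC against 1.12 in CD34a6, and beta-defensin Defb1 at 113 against 3.76. Defb6, a beta-defensin high in bulk at 885 FPKM, was the member called lower (1.18 against 11.3). S100a8, the partner of S100a9, was not called at 128 against 0.125 FPKM. Interferon-stimulated genes gave 13 higher and 4 lower of 21, with Irf1 at 24.7 against 1.93 FPKM and Ifitm3 at 259 against 44.1, while Stat2 (3.44 against 5.03) and Ifi27l2a (0.396 against 10.5) were lower.

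Enzymes that cut matrix and the inhibitors that check them were more often called higher than lower. Of 27 matrix proteases and inhibitors, 17 were called higher and 8 lower. Htra1, a secreted serine protease, had 551 FPKM in HFSC, 9.54 in CD34a6 and 162 in bulk. Mmp3 was at 7.80 against 0.0396 FPKM, the urokinase gene Plau at 54.3 against 4.43 and its receptor Plaur at 6.06 against 0.572, and Mmp13 was listed at 50.3 FPKM in HFSC and 0 in CD34a6. The inhibitors parted: Timp3 was higher (125 against 15.4 FPKM) and Timp2 lower (42.4 against 134). Of 23 serpins, stefins and cystatins, 15 were called higher and 5 lower. Stfa3, an intracellular cathepsin inhibitor, was at 449 against 30.8 FPKM and Serpinb6c at 46.6 against 0.335, while Serpinb12 was lower at 0.537 against 6.66. The stefins are near copies of each other, so their separate levels are uncertain.

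Collagen genes were lower in HFSC at 15 of 22 tested members and higher at 1, with a median of -1.82. The anchoring fibril gene Col7a1 was 2.75-fold lower (106 against 291 FPKM), and the chains of basement membrane collagen IV were lower together, from Col4a2 (17.9 against 32.3) to Col4a4 (0.755 against 12.0). Col5a1 was at 0.729 against 48.4 FPKM, Col8a2 at 0.319 against 49.2 and Col6a2 at 0.0483 against 36.3. The fibrillar Col1a1 was at 0.447 against 22.4 FPKM, and Col1a2 was not called at 0.0223 against 8.08. Fibroblast markers bear on these values: of 14 listed, 5 were tested, 3 were called lower in HFSC and 0 higher. Their summed level was 1.11 FPKM in HFSC, 40.8 in CD34a6 and 78.2 in bulk. Vim (56.6 FPKM) and Thy1 (17.6) made up most of the bulk sum. Col1a1 (1.21) and Col1a2 (0.825) were called lower in bulk than in CD34a6. Dcn stood at 0.0358 FPKM in HFSC, 2.58 in CD34a6 and 1.99 in bulk, the latter 2 without a call. Pdgfra, Pdgfrb and Col3a1 were not tested. Col1a1 and Col1a2 stand in both lists. The part of other cells in the collagen values was not tested.

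**Figure D3:**
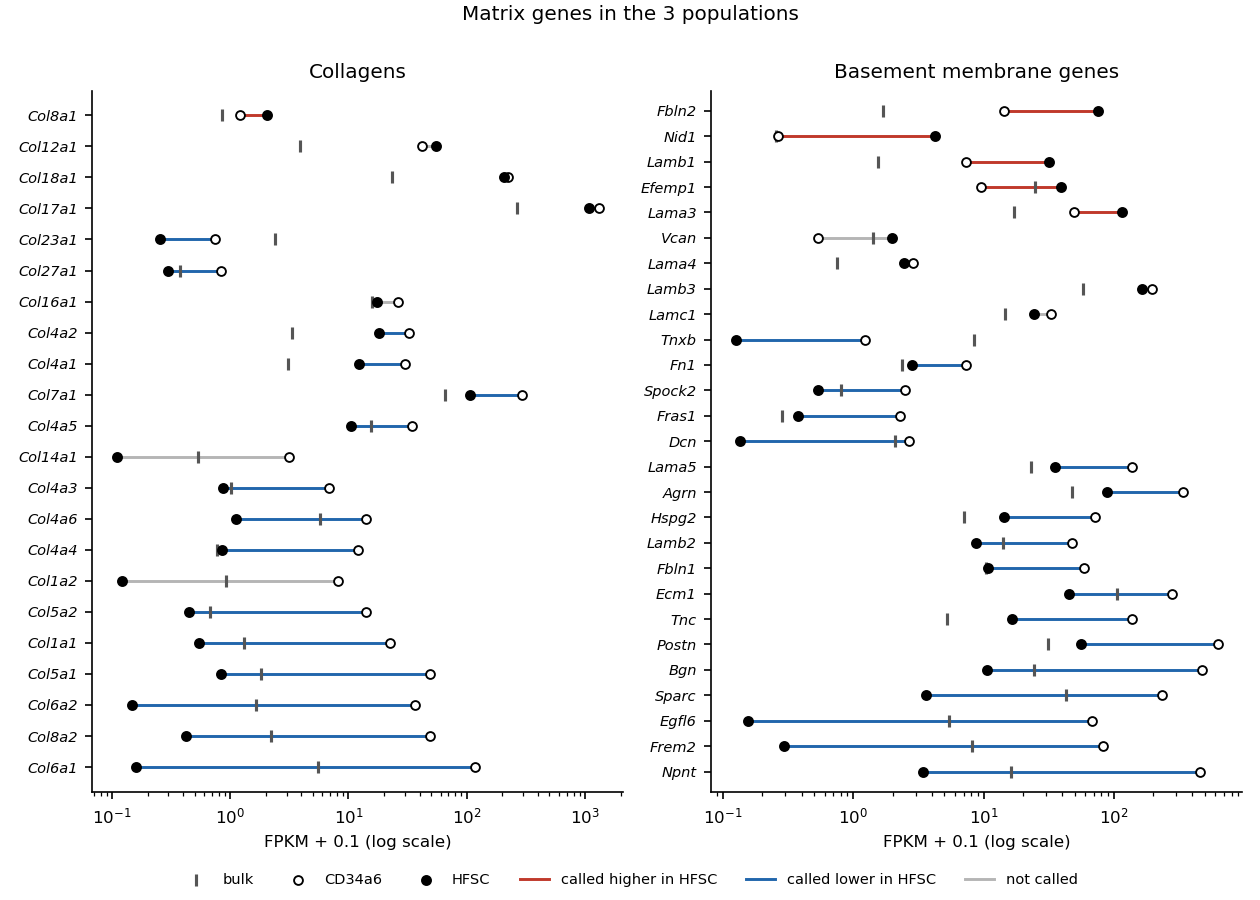
FPKM + 0.1 (log scale) of tested collagen genes (left) and basement membrane genes (right) in HFSC (filled circles), CD34a6 (open circles) and bulk (ticks), joined by lines coloured by the authors' call. Most lines run from a high CD34a6 value to a low HFSC value, and among the called genes drawn Col8a1, Lama3, Lamb1, Nid1, Efemp1 and Fbln2 run the other way.

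Basement membrane genes went in both directions by chain, 6 higher and 18 lower of 28. Lama3, a laminin chain that binds hemidesmosomes, was higher at 116 against 48.8 FPKM, and Lamb3 was not called at 163 against 195. Lama5 (35.4 against 137 FPKM) and Lamb2 (8.66 against 47.3), chains of laminin-511 and its kin, were lower, as were the heparan sulphate proteoglycans Agrn (87.6 against 339) and Hspg2 (14.2 against 71.0). Bgn, biglycan, stood at 10.5 against 477 FPKM, Sparc at 3.49 against 234, and Egfl6 and Frem2, made at the follicle's boundary, at 0.0543 and 0.192 against 67.8 and 81.7. Tenascin Tnc was 8.33-fold lower and periostin Postn 11.3-fold lower. In the separate table of 3C fractions, Bgn had 59.2 FPKM in CD34+ and 1.403 in CD34neg cells.

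Integrin and actin genes were more often called higher than lower. Of 13 integrins 7 were called higher and 1 lower. The collagen receptor gene Itga2 was 3.37-fold higher (29.2 against 8.66 FPKM) and the shared beta chain Itgb1 2.67-fold (285 against 107), and Itgb8, which releases active TGF-beta, was lower (3.03 against 16.03). Of 27 actin and contractile genes 19 were called higher and 2 lower. Tropomyosins Tpm1 (293 against 91.8 FPKM), Tpm2 (187 against 50.5) and Tpm4 (415 against 119), cofilin Cfl1 (683 against 244) and profilin Pfn1 (767 against 262) were among those higher. Vim was lower (0.588 against 5.53 FPKM). Junction genes gave 21 higher and 6 lower of 35. The connexin Gjb2 (43.8 against 1.21 FPKM), claudin Cldn4 (84.3 against 5.41) and desmocollin Dsc2 (29.4 against 1.18) were higher, the connexin Gjb5 (9.69 against 40.6) lower, and E-cadherin Cdh1 was not called (146 against 128).

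Proliferation genes were no higher in HFSC as a group. Mitosis genes had 15 called lower, 0 higher and 14 not called of 29, with a median of -0.56, and replication genes 10 lower, 1 higher and 18 not called of 29, a share called lower of 34.5% beside 29.0% of all loci. Mki67, a mark of cycling cells, stood at 19.3 FPKM in HFSC, 37.8 in CD34a6 and 7.48 in bulk, and Top2a at 63.7, 139 and 31.4. Both columns therefore lay above bulk for these genes. Cdk1 was not called (60.1 against 69.5 FPKM), and Rrm2, a subunit of ribonucleotide reductase, was the replication gene called higher (75.8 against 42.0). The cycle regulators moved one against another, with 7 called higher and 11 lower of 27 (25.9% and 40.7%). The share called higher was near the 25.2% of all loci. Myc (124 against 20.8 FPKM), Ccnd1 (132 against 50.9) and Ccnd2 (210.05 against 68.5) were higher. The inhibitor Cdkn2b was higher too (11.1 against 1.07), and the inhibitors of quiescent cells, Cdkn1b (17.7 against 92.2) and Cdkn2c (5.55 against 32.3), were lower. Mycn, active in developing follicles, was at 0.0660 against 10.5 FPKM. Cdkn2a, a cell cycle inhibitor locus, was listed at 22.4 FPKM in HFSC, 0.0381 in CD34a6 and 0.11002 in bulk and was not called (adjusted p 0.33 in the authors' deposited table).

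The machinery that makes ribosomes was higher nearly throughout. Of 32 ribosome biogenesis genes 29 were called higher and 0 lower, with a median of 1.08. Nucleolin Ncl stood at 309.5 against 147 FPKM, nucleophosmin Npm1 at 843 against 325, the helicase Ddx21 at 75.5 against 21.4 and the RNA polymerase I subunit Polr1b at 23.2 against 9.59. Ribosomal protein genes gave 35 higher and 0 lower of 44, with a median of 0.71, and summed to 34690.3 FPKM in HFSC, 20369.1 in CD34a6 and 108864 in bulk. Rplp0, of the ribosome stalk, had 2016 FPKM in HFSC, 1013 in CD34a6 and 9418 in bulk. Several ribosomal protein genes had low values here and high ones in the table of 3C fractions, such as Rps6 with 2.33 FPKM in HFSC and 1245 in the CD34+ fraction, and so had Gapdh (6.70 against 841). These genes have many pseudogene copies, and processed pseudogenes themselves were called higher at 139 and lower at 25 of 708 tested loci, so levels of such genes are uncertain in this table.

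Genes for amino acid supply were higher in HFSC nearly throughout, with 30 of 35 called higher and 1 lower and a median of 1.85. Many of them are known targets of Atf4, a factor that cells translate when amino acids run short or the endoplasmic reticulum is strained. Atf4 stood at 216 FPKM in HFSC, 73.4 in CD34a6 and 76.5 in bulk, its partner Cebpg at 38.4, 20.2 and 16.2, and the pseudokinase Trib3 at 56.0, 1.102 and 13.7. Ddit3, which encodes CHOP, was 2.96-fold higher. The 3 enzymes of serine synthesis and the mitochondrial folate enzymes that use serine were higher: Phgdh (127 against 32.3 FPKM), Psat1 (284 against 32.9), Psph (58.4 against 23.4) and then Shmt2 (106 against 31.1) and Mthfd2 (66.6 against 6.73). Transporters followed, with the cystine importer Slc7a11 at 9.35 against 0.0373 FPKM, the arginine importers Slc7a1 at 72.2 against 8.08 and Slc7a3 at 22.2 against 1.07, and the glutamine importer Slc38a2 at 520.2 against 265. In the cysteine pathway Cth was higher (62.7 against 5.95) and Cbs lower (12.7 against 80.5). The enzymes that charge tRNA with amino acids were higher at 18 of 20 and lower at 0, from Gars (127 against 22.2 FPKM) to Dars (53.9 against 37.9), and Qars and Farsa were not called.

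Since most of the list was higher, promoter windows were searched for TGATGNAA on either strand, the core of the amino acid response element that Atf4 and C/EBP proteins bind. The windows run from 250 bases before to 50 after each RefSeq start site on GRCm38.p6, and 31 tested members of the list had one. The motif was present in 10 of the 31 (32.3%) and in 8 of the 27 called higher (29.6%), against 259 of 9441 tested genes with a window (2.74%) and 3.97% of all 32851 windows. Many members are known Atf4 targets, so a share above that of all genes follows from how the list was chosen. It is not a result of this comparison, and the share was no larger among members called higher. A match is a string of letters and not a shown binding site. Stretches around the match are printed for 6 members called higher, on the gene's strand, with the match in capitals, to show where the shared element lies and that it occurs in both orientations.
Asns, chr6:7693210-7693272, minus strand: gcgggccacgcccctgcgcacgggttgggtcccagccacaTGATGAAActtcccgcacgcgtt
Chac1, chr2:119351009-119351096, plus strand: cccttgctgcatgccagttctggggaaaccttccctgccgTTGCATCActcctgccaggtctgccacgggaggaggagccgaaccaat
Nupr1, chr7:126625533-126625620, minus strand: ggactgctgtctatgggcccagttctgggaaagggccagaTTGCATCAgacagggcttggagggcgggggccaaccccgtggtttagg
Slc7a11, chr3:50443614-50443719, minus strand: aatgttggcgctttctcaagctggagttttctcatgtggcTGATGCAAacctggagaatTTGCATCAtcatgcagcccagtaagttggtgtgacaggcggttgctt
Pycr1, chr11:120643804-120643891, minus strand: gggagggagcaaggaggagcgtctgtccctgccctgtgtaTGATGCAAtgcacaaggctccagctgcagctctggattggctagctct
Atf3, chr1:191183396-191183483, minus strand: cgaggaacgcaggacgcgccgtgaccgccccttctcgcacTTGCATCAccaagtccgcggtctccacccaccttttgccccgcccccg
In Asns, the asparagine synthetase gene, the match begins 23 bases before the start site, and in Chac1, which degrades glutathione, 193 bases before it on the other strand. Slc7a11 holds 2 matches in opposite orientations, at 66 and 47 bases. Chac1 was at 20.7 against 0.666 FPKM and Nupr1, a stress-induced chromatin protein, at 127 against 10.8. The differences of Pycr1 (10.4 against 4.89) and Atf3 (7.79 against 4.02) were smaller, so genes with a match did not share a size of change.

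Glycolysis was higher in HFSC along most of its length, with 14 of 19 genes called higher, 2 lower and a median of 2.29. Aldoa stood at 1000.5 FPKM in HFSC, 155 in CD34a6 and 578 in bulk, Eno1 at 1167, 224 and 358, Pkm at 1066, 218 and 278, and Ldha, which makes lactate, at 1044, 129 and 411. In each of these 4 genes bulk lay between the other columns. The hexokinases Hk1 (45.8 against 53.9 FPKM) and Hk2 (31.5 against 33.9) were not called, and of the phosphofructokinases Pfkl was higher (90.1 against 11.6) and Pfkm lower (5.71 against 17.5). Hypoxia response genes, many of them targets of Hif1a, had 21 called higher and 1 lower of 28. Vegfa, the main angiogenic factor, had 54.9 against 5.81 FPKM, the mitophagy receptor Bnip3 at 70.0 and 8.62, and the prolyl hydroxylase Egln3 at 113 and 7.63. Pfkfb4 was lower (2.13 against 3.98 FPKM), and Hif1a itself was 2.47-fold higher.

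The hypoxia response core ACGTG is short, and stood in 29.2% of tested genes with a window. It was present in 14 of 21 hypoxia response genes with a window (66.7%) and in 13 of 18 glycolysis genes (72.2%). The lists were chosen by known function and hold known Hif1a targets, so these shares are not a result of this comparison. Among the 13 glycolysis genes with a match, Hk1, Hk2 and Aldoc were not called and Pfkm was called lower. The stretches nearest the start site are shown for glucose uptake, lactate export and lactate synthesis, with each match in capitals on either strand.
Slc2a1, chr4:119108669-119108744, plus strand: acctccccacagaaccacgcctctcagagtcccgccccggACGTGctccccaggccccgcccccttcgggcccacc
Slc16a3, chr11:120949000-120949066, plus strand: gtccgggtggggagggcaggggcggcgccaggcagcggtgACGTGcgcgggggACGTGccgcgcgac
Ldha, chr7:46845716-46845803, plus strand: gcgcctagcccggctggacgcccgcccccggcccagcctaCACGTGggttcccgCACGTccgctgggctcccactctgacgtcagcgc
Slc16a3 holds 2 matches and Ldha 3, of which a pair overlap on opposite strands. A Gli site, GACCACCCA, was in 0 of 9 Hedgehog members with a window and 0.265% of tested genes.

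**Figure D4:**
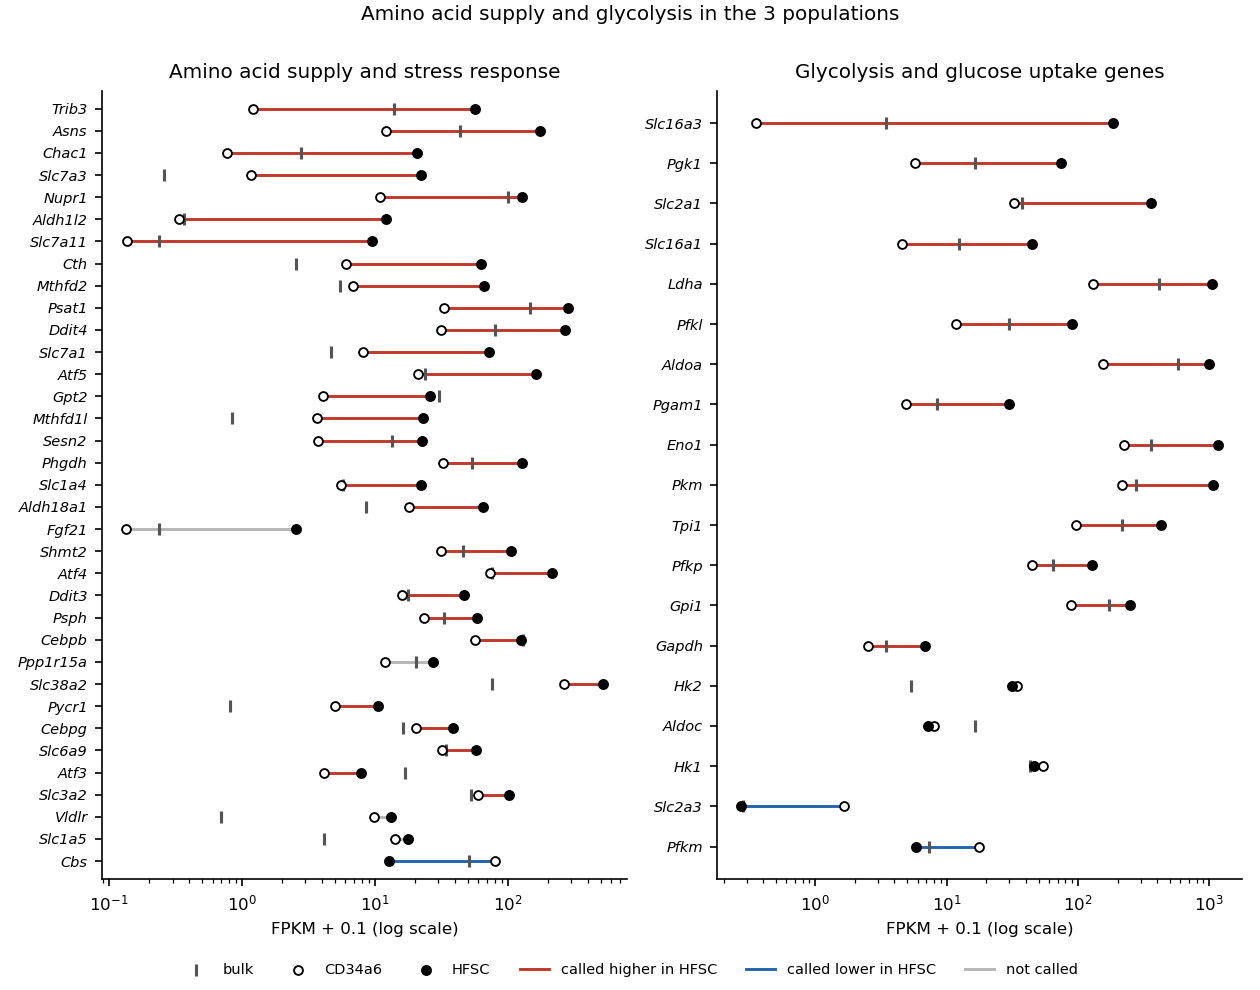
FPKM + 0.1 (log scale) of the tested genes for amino acid supply (left) and glycolysis (right) in HFSC (filled circles), CD34a6 (open circles) and bulk (ticks), joined by lines coloured by the authors' call. HFSC lies to the right for most genes, and among those called Cbs, Pfkm and Slc2a3 show the opposite order.

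Respiration and lipid synthesis differed less. Citrate cycle and respiratory chain genes had 11 called higher, 3 lower and 21 not called of 35, with a median of 0.28, so its share called higher, 31.4%, was near the 25.2% of all loci. Cox5a was the widest of those higher (145 against 63.4 FPKM), and Idh2, the mitochondrial NADP-linked isocitrate dehydrogenase, was 2.27-fold lower. Cholesterol synthesis genes had 12 higher and 2 lower of 22, with Sqle, the squalene epoxidase, at 53.9 FPKM in HFSC, 17.9 in CD34a6 and 82.4 in bulk. Fatty acid genes had 9 higher and 6 lower of 26 (34.6% and 23.1%), also near those of all loci. The carrier Fabp5 was higher (670.01 against 20.3 FPKM), the elongase Elovl6 (3.63 against 12.4) and the desaturase Scd1 (11.3 against 29.3) lower, and Fasn not called (46.4 against 48.5).

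Chaperone and proteasome genes were mostly higher in HFSC. Of 22 endoplasmic reticulum chaperone genes 18 were called higher and 0 lower, with Hspa5, which encodes BiP, at 369 FPKM in HFSC, 99.96 in CD34a6 and 165 in bulk and Herpud1 at 76.2, 16.9 and 69.5. Heat shock and cytosolic chaperones had 17 higher and 2 lower of 23. The mitochondrial chaperones Hspa9 (268 against 54.8 FPKM) and Hspd1 (183 against 45.9) differed most, the inducible Hspa1a was not called (11.5 against 14.6), and Hspb8 was lower (33.4 against 109). Proteasome genes had 19 higher and 0 lower of 27 by small folds, with a median of 0.56. Lysosome and autophagy genes had 14 higher and 5 lower of 25. Cathepsins Ctsc (94.7 against 5.03 FPKM), Ctsh (260.5 against 18.5) and Ctsl (301 against 50.2) were higher, and Tfeb, the master factor of lysosome genes, was lower (3.29 against 12.5).

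Targets of Nrf2 and of the aryl hydrocarbon receptor gave 14 higher and 4 lower of 24. Hmox1, haem oxygenase, was at 109 FPKM in HFSC, 3.26 in CD34a6 and 47.6 in bulk, and Gsta4 at 42.8, 0.395 and 2.90, whereas the classical Nrf2 target Nqo1 was not called (13.8 against 14.7) and Gstm1 was lower (9.20 against 67.3). The metallothioneins, which bind zinc and copper, were far apart: Mt1 had 1136 against 85.04 FPKM and Mt2 1883 against 60.3. Targets of p53 had 21 higher and 2 lower of 26. The death genes Pmaip1 (53.6 against 1.35 FPKM) and Bbc3 (16.3 against 3.57) and the kinase Plk3 (34.01 against 1.92) were higher, Mdm2 was not called (31.7 against 23.4), and Sesn1 was lower (7.48 against 42.3). Immediate early genes split 10 higher to 11 lower of 24. Fos (16.3 against 61.0 FPKM), Jun (41.7 against 83.3), Dusp1 (13.7 against 51.1) and Fosb (0.109 against 7.42) were lower and Ier3 (212 against 18.2), Klf6 (58.1 against 14.1) and Fosl1 (6.43 against 0.362) higher. Fos, Fosb and Dusp1 had their highest level in bulk, at 117, 17.1 and 128 FPKM, and Jun in CD34a6.

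Hox genes, which record the position of a cell along the body, were lower in HFSC at 15 of 23 tested members and higher at 2, with a median of -1.92. Hoxc8 stood at 3.63 FPKM in HFSC, 41.8 in CD34a6 and 5.06 in bulk, Hoxc6 at 7.15, 33.6 and 5.59, Hoxa7 at 13.1, 67.6 and 41.6, and Hoxb6 at 2.19, 21.2 and 3.08. For Hoxc8 and Hoxb6 the HFSC and bulk columns were both low. The cofactor gene Meis2 was higher (6.12 against 2.57 FPKM), and Hoxc13, a hair factor, and Hoxb9 were not called, at 16.6 against 18.9 and 11.5 against 13.1 FPKM. Neighbouring Hox genes overlap at shared loci, so their counts are uncertain where transcripts run together.

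All 19 clock genes tested were called, 5 higher and 14 lower. The activators Arntl, which encodes Bmal1, and Clock were higher in HFSC, at 21.0 against 6.69 and 13.3 against 9.43 FPKM. The activator Npas2 was lower, at 0.582 against 9.91 FPKM. The repressor Cry1 was higher (8.96 against 4.54). The genes that such activators drive through E-boxes went both ways. Bhlhe40 was higher at 36.3 against 3.58 FPKM and Ciart at 4.31 against 1.99, both of them repressors. Others were lower, with Dbp at 2.72 FPKM in HFSC, 56.4 in CD34a6 and 12.5 in bulk, Tef at 12.9, 76.5 and 21.4, Per2 at 1.57, 12.96 and 1.88, and Per3 at 1.08, 8.42 and 1.86. Nr1d1 and Nr1d2, which repress Arntl, were at 4.03 and 6.77 against 24.7 and 33.3 FPKM. The labels give no hour of collection.

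**Figure D5:**
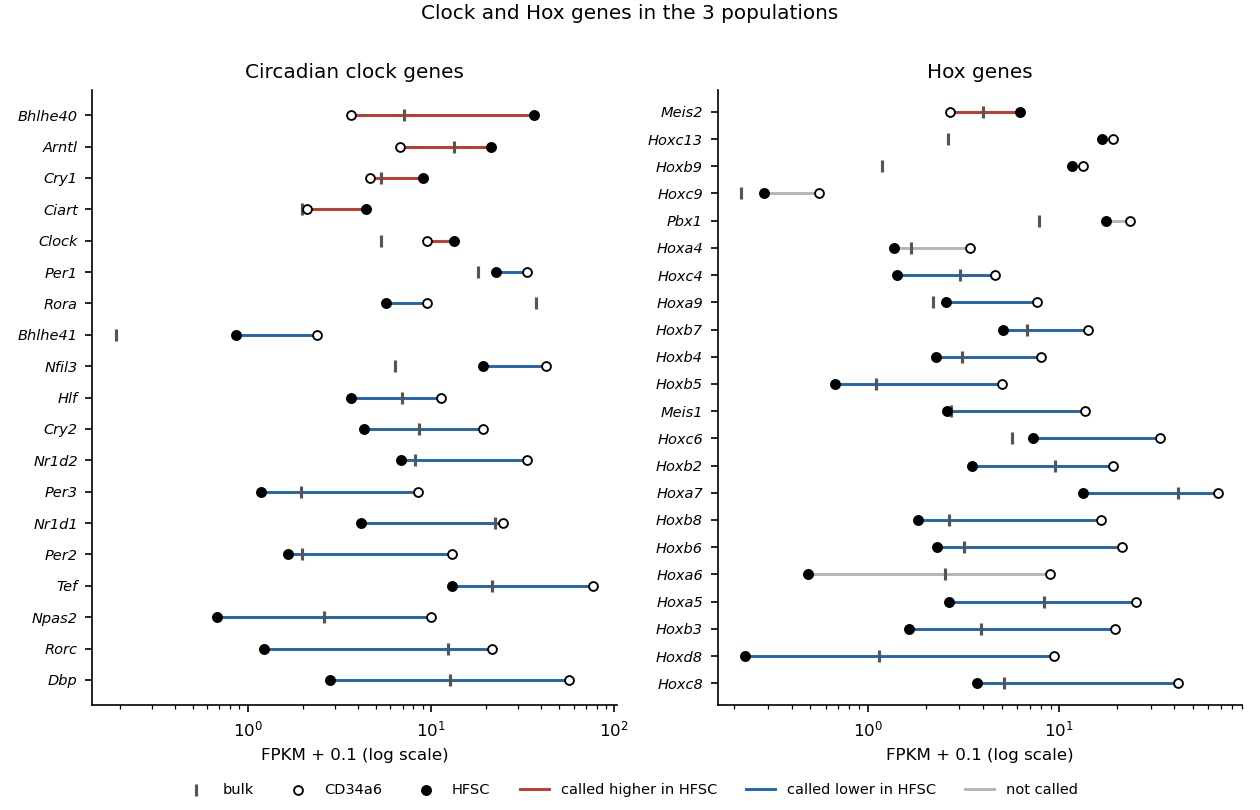
FPKM + 0.1 (log scale) of the tested clock genes (left) and tested Hox genes with their cofactors (right) in HFSC (filled circles), CD34a6 (open circles) and bulk (ticks), joined by lines coloured by the authors' call. Bhlhe40, Arntl, Cry1, Ciart and Clock are higher in HFSC and the other clock genes lower, and most Hox genes lie to the right in CD34a6.

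Chromatin regulators were lower at 16 and higher at 6 of 30. Hmga2, an architectural chromatin protein, was 11.4-fold higher (11.9 against 1.04 FPKM, 0.0310 in bulk). Polycomb genes went both ways. Ezh2 (18.1 against 34.99), Ezh1 (9.63 against 21.5) and Cbx7 (3.58 against 11.4) were lower. Eed (25.1 against 17.2) and Jarid2 (12.9 against 7.94) were higher, while Suz12 (25.5 against 25.4) and Bmi1 (21.5 against 20.8) were not called. The methylcytosine oxidases Tet1 (0.166 against 1.98) and Tet2 (6.18 against 14.7) were lower. Retinoid genes had 9 lower and 1 higher of 13. The receptor genes Rara (6.18 against 25.03 FPKM) and Rarg (73.7 against 145) and the retinal reductase Dhrs3 (6.37 against 53.2) were lower and the carrier Crabp2 higher (32.9 against 15.9). Imprinted genes gave 3 higher and 5 lower of 13 (23.1% and 38.5%), near the shares of all loci, with Grb10, an adaptor that dampens insulin signalling, at 10.2 against 0.949 FPKM, Peg3 at 3.95 against 24.8, and Sgce listed at 0 and 10.6.

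Markers of other cells in skin were mostly untested. Merkel cell and nerve markers had 5 tested of 11, with 4 lower in HFSC and sums of 0.383 FPKM in HFSC, 13.4 in CD34a6 and 3.22 in bulk, of which Ngfr made up most, at 0.0735 against 9.597 FPKM. Among melanocyte markers, Mitf was lower in HFSC (2.51 against 13.9 FPKM), Dct was not called (0.0386 against 7.29), and 7 of 10 were not tested, for sums of 2.76, 21.9 and 6.18 FPKM. The endothelial and mural sums were 12.6, 75.5 and 33.7 FPKM. Cspg4 made up most of the CD34a6 sum and Notch3 (28.0 FPKM) most of the bulk sum. Of the endothelial and mural markers, Cspg4 was lower (5.72 against 67.6 FPKM) and Pecam1 higher at a low level (0.955 against 0.260). In the separate table of 3C fractions, Cspg4 had 10.9 FPKM in CD34+ and 1.02 in CD34neg cells. Erythroid, muscle and adipocyte lists had 2 tested members each, and Lpl was the call among them (17.6 against 0.409). Hair shaft and inner root sheath genes had 3 higher and 1 lower of 8 tested, led by trichohyalin Tchh (17.3 against 1.46 FPKM), with 16 not tested. The part of such cells in the results above was not tested.

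The size of a difference did not settle its call in the authors' deposited table. Of loci at 5 FPKM or more in the higher column and at least 50-fold apart, 195 were called and 77 were not, 35 of the latter higher in HFSC. The uncalled had a median of 0.0386 FPKM in the lower column where it was above 0, and the called 0.162. Loci listed at 0 in a column were on both sides, 43 of the called and 16 of the uncalled. Over all tested loci, 95 of the 106 at 0 in CD34a6 were called, and 81 of the 147 at 0 in HFSC, beside 54.2% of all loci. S100a9, listed at 0 in CD34a6, was called, while S100a8, at 0.125 FPKM there, was not. A missing call among genes at least 50-fold apart, as for Tslp, Ccl2 and Cdkn2a, does not show that the columns held alike levels. Of the tested loci, 6208 hold more than 1 named or predicted gene, so a value may include a neighbour or an antisense transcript. Among the genes described, Htra1 stands at a merged locus of many genes, Hspd1 shares its locus with Hspe1, Ddit3 with Mars, Dbp with Rpl18 and Sphk2, Nr1d1 with Thra, Igfbp7 with Polr2b, Lamb3 with Hsd11b1, Col4a2 with Col4a1 and Tchh with Hrnr and Rptn, and their values are uncertain for that reason. Tslp shares its locus with Wdr36, Per3 with Camta1 and Vamp3, Cxcl16 with Zmynd15 and Cbx7 with Apobec3. The genes named here are examples and not a full list.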

How the data were processed

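The 3-population table holds the authors' FPKM per locus and population, with a fold, test score, p-value and q-value per pair. Per the submitters' processing notes, the tools were Cuffdiff, Cufflinks 2.2.1, StringTie 1.1.0 and HISAT 0.1.6, on GRCm38. The authors' log2 fold, test score, p-values and adjusted p-values (q-values) were deposited with it and no replicate value was used here, so no gene test was computed. The FPKM of the 3C tables were deposited by the authors separately, with TopHat2 2.0.13, featureCounts and DESeq2 1.8.1 in the submitters' processing notes. Depth in reads is not given in the sources used here, so no counting interval is given.

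Decimal commas were converted, values were assigned by the population names on each line, and repeated lines counted once. A symbol at several loci was read at the locus with the highest mean FPKM. Folds used log2 of FPKM plus a pseudocount of 1, and calls a threshold of 0.05, with Python 3.11.15, pandas 2.3.3, numpy 2.4.6, scipy 1.17.1 and matplotlib 3.10.9. The reading and counting steps were tested on simulated data. Coordinates are those of the deposited table, and promoter windows are from RefSeq on GRCm38.p6. Genes were named as the 15 largest folds each way among loci of at least 5 FPKM, the 10 highest levels each way, the 5 highest uncalled loci, and in each list up to 5 members each way by fold, 5 by level and 4 uncalled; other named genes were chosen after their values were seen. The members and lists were chosen with earlier results of these data known. Alternatives changed the threshold, filters, pseudocount, scaling and the loci kept. A few genes are not reported here.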

Additional observations from a re-analysis of the deposited data

How the results depend on the processing

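With only called loci at least 2-fold apart, 1878 were higher and 2813 lower, and leaving out loci of more than 1 gene gave 2245 higher and 2420 lower, in both cases by construction of fewer loci. The share of calls that were higher was 46.4%, against 51.9% with at least 5 FPKM and 40.03% with at least 2-fold. An adjusted p under 0.01 gave 2746 and 3349, adjustment over this pair alone 3582 and 4123, a minimum of 1 FPKM 3379 and 3764, and of 5 FPKM 2978 and 2765. Leaving out loci listed at 0 (3419 and 3973) and keeping protein-coding loci (3299 and 3813) were chosen after seeing the data. Setting the median to 0 or the sums equal turned the direction of 0 called loci, with the authors' calls kept and not recomputed. Of the list medians, these changed sign: the median log2 fold of EGF receptor family and ligands was -0.00736 with equal sums, and the median log2 fold of fatty acid and lipid genes was -0.0296 with equal sums and -0.0616 without loci of more than 1 gene; for the latter the cause was not tested. Of the 56 list medians, 49 moved by at least 0.1 (log2) with their sign kept under equal sums, 27 without loci of more than 1 gene, 35 with a pseudocount of 0.01, 34 with 0.1 and 10 with a minimum of 1 FPKM. No paired analysis was possible because the deposited table gives 1 value per population and no replicate values, and for the same reason no replicate could be left out. Depth limits these results to an unknown degree.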
